A study of Mus musculus with 9 samples.

Results

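The genes described here were those whose RNA stood highest in back skin of mice given imiquimod (IMQ) cream together with Longkui Yinxiao Soup (LYS). They were chosen by their measured counts scaled to a library total of 1000000 counts (CPM). A gene was kept when its smallest CPM over the 3 LYS libraries was at least 1.5 times the largest CPM over the 3 control and 3 IMQ libraries and its mean CPM in the LYS group was at least 2. Names of immunoglobulin heavy and light chain genes were left out, which removed no gene. The rule kept 47 of the 29205 genes in the table. Of the 13471 genes with a mean LYS CPM of at least 2, these 47 were 0.349%. Because the values of the LYS libraries against the other 6 chose the genes, those values are given as a description without a test.

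All mice were male BALB/c mice aged 6 to 8 weeks, and the back skin of every mouse was shaved and depilated before the experiment. The control group was left blank, and the IMQ group received 62.5 mg of IMQ cream (5% w/w) daily on the back skin on 5 consecutive days. The LYS group received the same cream and LYS, a Chinese herbal decoction. LYS was given into the stomach and over more days than the cream. The paper describes no vehicle cream for the control group. Skin was collected on day 13 and whole-tissue RNA was sequenced, with 3 libraries per group and 9 in all. No group received LYS without IMQ, so the LYS libraries carry both treatments.

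IMQ is an agonist of Toll-like receptor 7, and its cream gives mouse skin scaling, thickening and an infiltrate of neutrophils and T cells, in which gamma-delta T cells are a main source of interleukin-17. Leukocytes in such skin signal through receptors with immunoreceptor tyrosine motifs, which recruit the kinases Syk and Zap70, and through phosphoinositide 3-kinases (PI3K), which carry the signal to integrins and the actin cytoskeleton. Serum amyloid A proteins are acute phase proteins that epithelial cells, macrophages and fibroblasts make under inflammatory cytokines. The summed counts ranged from 14658645 to 19609878 per library, and the 3 LYS libraries were the smallest. The labelled tissue carried its defining markers: the keratin Krt14 lay between 783 and 8335 CPM and the collagen Col1a1 between 648 and 9013 CPM over the 9 libraries.

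Among the 47 genes, the ratio of the smallest LYS value to the largest other value ran from 1.50 to 4.02 with a median of 1.67, and 8 genes reached 2. Those 8 were Saa2 (4.02), Fgf23 (3.03), Podnl1 (2.34), Chil3 (2.30), Prg4 (2.29), Tmem150b (2.18), Cd163l1 (2.10) and Ptgir (2.07). The LYS group mean was between 1.76 and 15.7 times the IMQ group mean, with a median of 2.66. Against the control group mean it was between 1.80 and 20.2 times higher, with a median of 3.15. By function the genes fell into 3 acute phase and chitinase-like genes, 10 genes of T cell receptors, cytokine receptors and lymphocyte factors, 8 myeloid receptors and proximal kinases, and 11 genes of adhesion, PI3K and the cytoskeleton. A further 3 act on NF-kB signalling and mRNA stability, 7 encode secreted matrix proteins and growth factors, and 5 were placed in no group.

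In whole skin, more cells of a type and more RNA per cell cannot be told apart, which holds for every level given here. The LYS libraries did not contribute alike. LYS 1 was the lowest LYS library for 31 of the 47 genes, and LYS 2 was the highest for 23. The other library that came closest was IMQ 1 for 16 genes, and it belonged to the IMQ group for 30 and to the control group for 17. Within the LYS group the largest value was at the median 1.42 times the smallest, close to the 1.38 found over all genes of that level. All 47 genes were found in GENCODE M21 (GRCm38), where 46 were protein-coding and 1, Trgc1, was a T cell receptor constant gene. They lay on 15 chromosomes, with 9 of them on chromosome 7. No shares over all genes were computed for the counts by library or by chromosome. Nothing particular to the 47 genes is read from those counts.

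**Figure D1:**
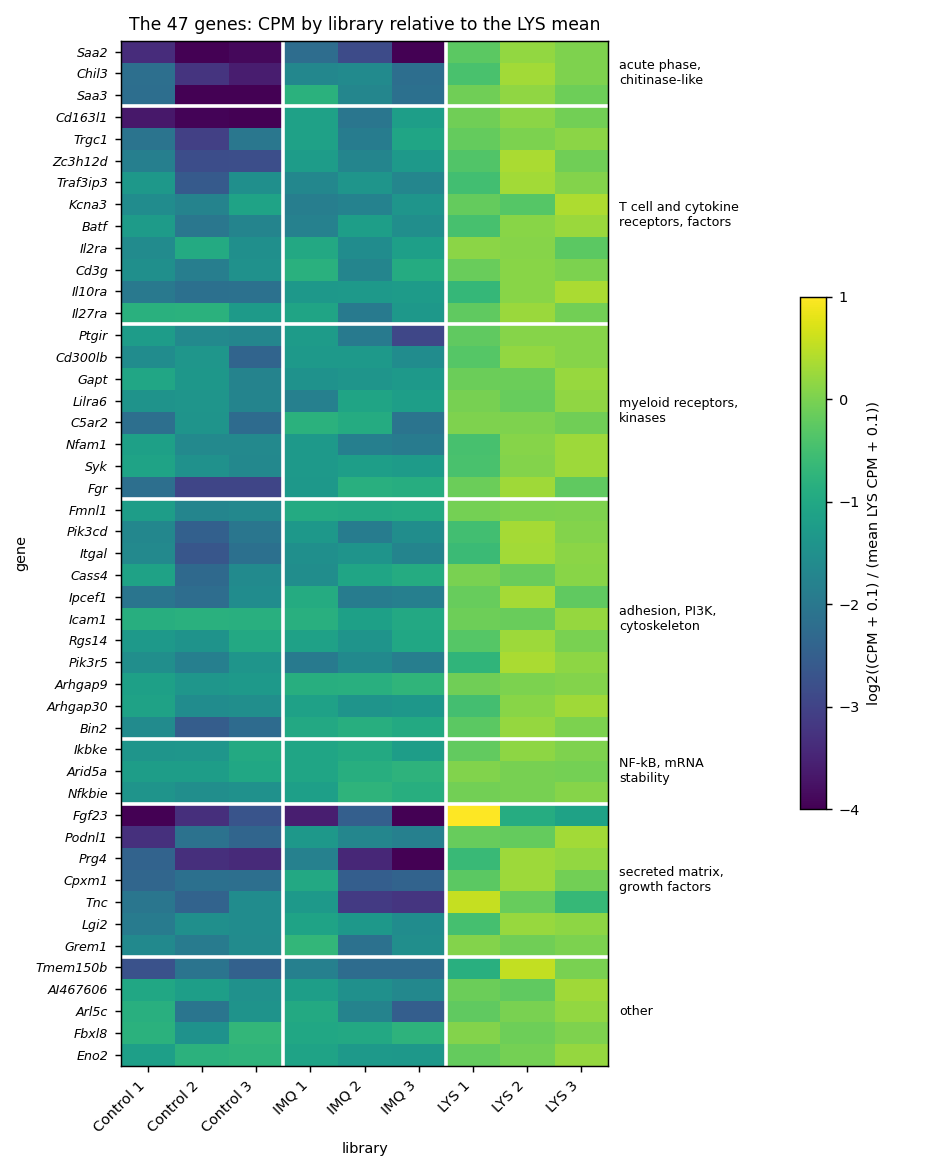
Each row is 1 of the 47 genes and each column 1 library, and the colour gives log2((CPM + 0.1) / (mean LYS CPM + 0.1)), cut at -4 and 1. White lines separate the 3 groups of libraries and the groups of genes by function, and the 3 LYS columns are the lightest in every row by construction. Fgf23 and Tnc are the rows in which LYS 1 stands well above LYS 2 and LYS 3.

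The largest separation belonged to the acute phase gene Saa2 (ENSMUSG00000057465, chr7:46751790-46754313, plus strand, GRCm38). Its values were 9.82, 13.5 and 12.03 CPM in the LYS libraries, 2.45, 1.53 and 0.591 CPM in the IMQ libraries and 1.05, 0 and 0.700 CPM in the control libraries. The LYS mean was 11.8 ± 1.85 CPM (SD, n = 3), which was 7.74 times the IMQ mean. Every LYS library lay more than 4 times above the highest other library, IMQ 1. Its near-identical neighbour Saa1 did not follow: Saa1 read 35.7, 31.8 and 23.4 CPM in the LYS libraries against 16.9, 38.0 and 15.8 CPM in the IMQ libraries, so these groups overlapped. Reads that match both copies cannot be assigned with certainty, which makes the split between Saa1 and Saa2 uncertain.

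Saa3 (chr7:46711998-46715700, minus strand), the serum amyloid A made outside the liver, was the most abundant of the 47 genes, with the highest mean FPKM as well (226, the count scaled by exon length and library total). It read 558, 661 and 550 CPM in the LYS libraries, 335, 181 and 133 CPM in the IMQ libraries, and 128, 18.2 and 7.29 CPM in the control libraries. The 3 groups followed in the order control, IMQ, LYS with no overlap, although Control 1 nearly reached the lowest IMQ library. Chil3 (Ym1), a chitinase-like protein of macrophages and neutrophils and a marker of alternative activation, read 7.03, 11.9 and 9.70 CPM in the LYS libraries. It lay between 2.01 and 3.06 CPM in the IMQ libraries and between 0.700 and 2.04 CPM in the control libraries, so that 1 control library touched the IMQ range. Chil4, a close paralog of Chil3, stayed at or under 0.189 CPM in every library, while the family member Chil1 was lower in the LYS libraries (238 to 1349 CPM) than in the IMQ libraries (1498 to 2558 CPM).

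**Figure D2:**
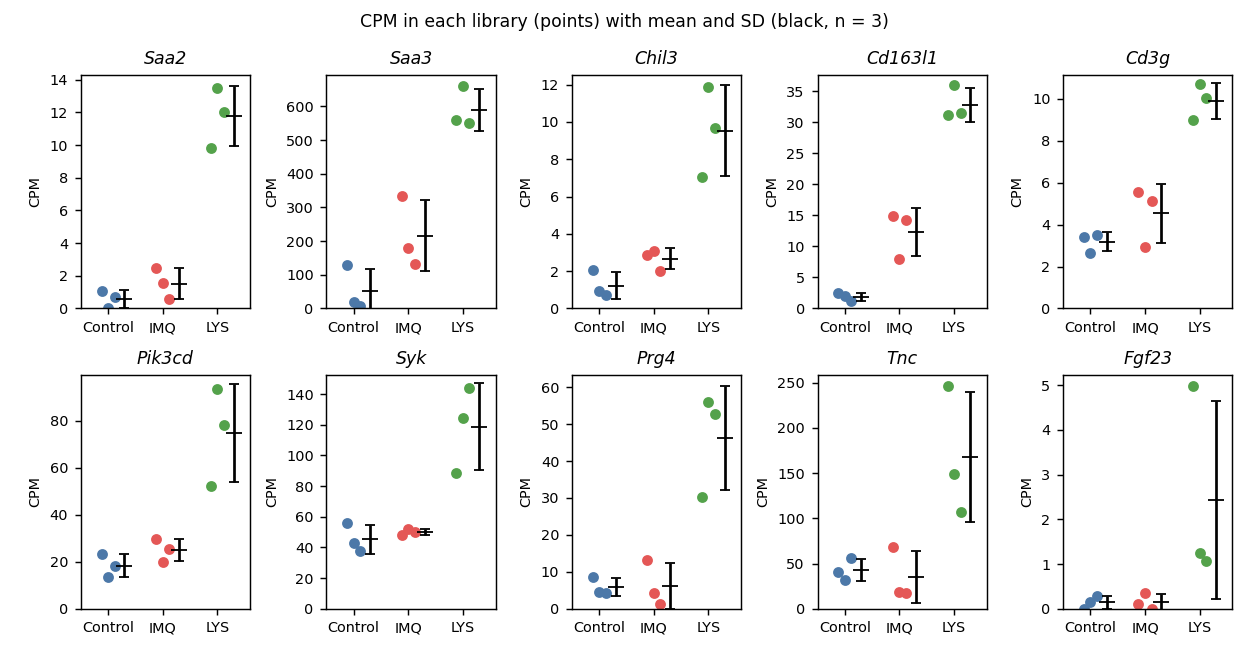
Points give the CPM of 10 of the genes in each library, in the order of the replicate numbers, and the black bars give the group mean and SD (n = 3), cut where they would pass below 0. In each panel the 3 LYS points lie above the 6 other points, as the rule requires, and in the panels of Tnc and Fgf23 a single LYS library, LYS 1, sets the upper end.

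The promoters were read because several of the genes are known targets of the same families of factors. RefSeq promoters on GRCm38.p6 were matched for 36 of the 47 genes, and the 250 bases before each start were searched on both strands. The names with no entry were Arhgap9, Arl5c, Bin2, Fbxl8, Il10ra, Il27ra, Itgal, Podnl1, Prg4, Rgs14 and Trgc1. The C/EBP letters TTGCNNAA stood before 4 of the 36 genes (11.1%) and before 10.8% of all 27025 genes with a promoter, a like share. These 4 were Saa2, Saa3, C5ar2 and Fgf23, and the first match of each is shown because both acute phase serum amyloid genes were among them. C5ar2 has a further match at position -166, past the end of its stretch. Each stretch runs 5′ to 3′ along the strand of the gene, and capitals mark the match on either strand.
Saa2 (chr7:46751620-46751687, plus strand): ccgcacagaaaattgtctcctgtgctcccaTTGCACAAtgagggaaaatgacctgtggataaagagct
Saa3 (chr7:46715738-46715805, minus strand): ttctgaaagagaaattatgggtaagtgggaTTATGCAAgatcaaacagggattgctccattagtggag
C5ar2 (chr7:16244327-16244394, minus strand): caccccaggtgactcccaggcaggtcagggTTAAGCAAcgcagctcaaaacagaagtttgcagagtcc
Fgf23 (chr6:127072743-127072810, plus strand): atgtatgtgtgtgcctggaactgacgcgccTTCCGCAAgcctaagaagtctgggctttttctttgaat

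The ETS letters GAGGAAGT, the form bound by PU.1 in myeloid and B cells, stood before 4 of the 36 genes (11.1%) against 2.79% of all genes with a promoter. With 4 matches this is a description only. They preceded the leukocyte genes Fmnl1, Gapt, Lilra6 and Traf3ip3, and the 3 matches that lie outside the GENCODE gene body are shown.
Fmnl1 (chr11:103171058-103171106, plus strand): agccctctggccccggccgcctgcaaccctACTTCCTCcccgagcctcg
Gapt (chr13:110357247-110357314, minus strand): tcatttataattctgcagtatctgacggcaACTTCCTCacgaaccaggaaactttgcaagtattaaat
Lilra6 (chr7:3915614-3915681, minus strand): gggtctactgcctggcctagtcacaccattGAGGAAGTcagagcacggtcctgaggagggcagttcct

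The NF-kB letters GGANTTTCC stood before 1 of the 36 genes (2.78%), Icam1, and before 1.247% of all genes with a promoter. These letters had been shortened by 1 base after a longer form was tried, so the search was widened with its outcome known. The match is shown because Icam1 is a well-known NF-kB target, and nothing is read from it.
Icam1 (chr9:21015757-21015825, plus strand): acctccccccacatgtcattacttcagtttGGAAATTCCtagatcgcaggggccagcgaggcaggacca

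The remaining letters were found at shares near those of all promoters. RUNX (TGTGGTT) stood before 2 of the 36 genes (5.56%, against 5.08% of all genes) and AP-1 (TGANTCA) before 2 (5.56%, against 7.82%). IRF (GAAANNGAA) stood before 4 (11.1%, against 8.18%) and the TATA box (TATAAA) before 5 (13.9%, against 14.3%). The IRF letters had also been shortened after a longer form was tried. The AP-1 letters read the same on both strands, and matches of different motifs were counted apart even where they overlap.

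Among the T cell and cytokine receptor genes, the widest separation was that of Cd163l1 (chr7:140218267-140231145), a scavenger receptor known in mice from gamma-delta T cells. It read 31.1, 36.0 and 31.4 CPM in the LYS libraries, 14.8, 7.94 and 14.2 CPM in the IMQ libraries and 2.48, 2.04 and 1.17 CPM in the control libraries. The 3 groups did not overlap and the LYS mean of 32.8 ± 2.71 CPM was 17.3 times the control mean. Trgc1, a constant gene of the gamma chain, read 5.87, 6.75 and 7.31 CPM in the LYS libraries, 2.95, 1.71 and 3.13 CPM in the IMQ libraries and 1.49, 0.714 and 1.57 CPM in the control libraries. Its relatives at the same locus lay lower and their LYS values overlapped those of the IMQ group, with Trgc2 between 1.09 and 2.27 CPM and Trgc4 between 0.441 and 1.254 CPM in the LYS libraries. Trgc1 and Trgc2 resemble each other closely, so the split of reads between these genes is uncertain. Trdc, the constant gene of the partner delta chain, read 6.00, 8.24 and 5.23 CPM in the LYS libraries and at most 3.61 CPM elsewhere, just under the ratio of 1.5 at 1.45. Trac, the alpha chain constant gene, stayed at or under 1.21 CPM in every library, with overlapping groups.

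Cd3g, the gamma subunit of the CD3 complex, read 9.005, 10.7 and 10.01 CPM in the LYS libraries against 5.56, 2.94 and 5.14 CPM in the IMQ libraries and 3.42, 2.65 and 3.50 CPM in the control libraries. The other subunits Cd3d, Cd3e and Cd247 also had all 3 LYS libraries above the other 6, with ratios of 1.09, 1.23 and 1.24 that kept them below the threshold. For Cd3d this depended on the scaling: with CPM scaled by TMM factors, LYS 3 fell below IMQ 3. Il2ra, the alpha chain of the interleukin-2 receptor (CD25), read 10.2, 9.97 and 7.81 CPM in the LYS libraries and between 3.03 and 4.79 CPM in the other 6. Its partner chains Il2rb and Il2rg had ratios of 1.01 and 1.13. Il10ra, the ligand-binding chain of the interleukin-10 receptor, read 46.9, 80.2 and 96.2 CPM in the LYS libraries, 29.6, 30.2 and 31.1 CPM in the IMQ libraries and 18.9, 16.7 and 17.0 CPM in the control libraries. The 3 groups were fully ordered, while Il10rb, the shared chain, overlapped between LYS (29.1 to 42.1 CPM) and IMQ (31.9 to 34.2 CPM).

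Zc3h12d, a ribonuclease of the Regnase family that limits T cell activation, read 8.32, 13.7 and 10.1 CPM in the LYS libraries and at most 4.50 CPM elsewhere. Traf3ip3, an adaptor of lymphocyte development, read 3.14, 5.61 and 4.72 CPM against at most 1.71 CPM. Kcna3, the voltage-gated potassium channel of effector T cells, read 2.18, 1.97 and 3.28 CPM against at most 1.11 CPM. The lowest LYS library was LYS 1 for the first pair and LYS 2 for Kcna3. Batf, an AP-1 family factor of Th17 cells and other lymphocytes, lay between 7.23 and 11.9 CPM in the LYS libraries and between 2.40 and 4.29 CPM in the rest. Its relative Batf3 had all LYS libraries above the rest at a ratio of 1.30, whereas its partner factor Irf4 overlapped (13.0 to 47.6 CPM in LYS, up to 23.7 CPM in the control group). Il27ra, the interleukin-27 receptor subunit, lay between 6.82 and 9.56 CPM in the LYS libraries and between 2.00 and 4.54 CPM in the rest.

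The receptors placed in the myeloid group were mostly of low abundance. This grouping assigns no cell type to their RNA in these libraries. Ptgir, the prostacyclin receptor, read 5.25, 6.57 and 6.55 CPM in the LYS libraries, 2.502, 1.53 and 0.709 CPM in the IMQ libraries and 2.54, 1.89 and 1.81 CPM in the control libraries. Ptgis, the enzyme that makes its ligand, read 6.36 to 10.8 CPM in the control group and 3.27 to 10.1 CPM in the LYS group, which overlapped. Cd300lb, an activating receptor that pairs with adaptors of the Tyrobp type, read 11.9, 16.9 and 15.7 CPM in the LYS libraries against at most 6.00 CPM elsewhere. Gapt, a transmembrane adaptor that binds Grb2, had 35, 40 and 49 counts in the LYS libraries and 12 to 22 counts elsewhere. Lilra6, a paired immunoglobulin-like receptor with closely similar family members, read 7.98, 7.17 and 9.07 CPM against at most 3.76 CPM. C5ar2, the second receptor of complement C5a, had 35, 40 and 35 counts in the LYS libraries and between 7 and 23 counts in the rest. The principal receptor C5ar1 overlapped, with LYS 1 at 24.2 CPM and Control 1 at 25.8 CPM.

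The abundant genes of this group were Syk, Nfam1 and Fgr. Syk, the kinase recruited by Fc receptors, C-type lectins and other receptors with immunoreceptor tyrosine motifs, read 88.3, 124 and 144 CPM in the LYS libraries. It read 48.1, 51.8 and 50.0 CPM in the IMQ libraries and 55.7, 42.8 and 37.4 CPM in the control libraries, which overlapped with each other. Nfam1, a receptor with such a motif, read 66.4, 96.5 and 109 CPM in the LYS libraries against 23.8 to 40.7 CPM elsewhere. Fgr, a Src family kinase of myeloid cells, read 43.9, 58.9 and 41.0 CPM in the LYS libraries, 18.9, 26.6 and 25.9 CPM in the IMQ libraries and 10.5, 6.12 and 6.12 CPM in the control libraries. Its relative Lyn also had every LYS library above the rest, at a ratio of 1.05, as did Zap70, the relative of Syk in T cells, at 1.34. The adaptor Tyrobp did so at 1.06 and the adaptor Fcer1g did not (0.903). For Tyrobp this depended on the scaling: with CPM scaled by TMM factors, LYS 1 fell below IMQ 2.

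The genes of adhesion and PI3K signalling were of middle to high abundance. Itgal, the alpha chain of the integrin LFA-1, read 49.4, 92.6 and 81.7 CPM in the LYS libraries, 26.1, 27.8 and 22.2 CPM in the IMQ libraries and 23.7, 11.6 and 16.6 CPM in the control libraries. Icam1, the ligand of LFA-1 on endothelium and keratinocytes, read 44.3, 42.9 and 54.9 CPM in the LYS libraries and stayed between 21.2 and 26.5 CPM in the other 6. The rule chose both sides of this adhesive pair for standing above the rest in all 3 LYS libraries. Itgb2, the beta chain of LFA-1, did so at a ratio of only 1.02. Icam2, a relative of Icam1, read 6.21 to 12.1 CPM in the LYS libraries and 11.4 to 12.2 CPM in the control libraries, which overlapped. Itgam, an alpha chain that shares Itgb2, had a ratio of 0.658.

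Pik3cd, the delta catalytic subunit of PI3K found in leukocytes, read 52.4, 93.3 and 78.3 CPM in the LYS libraries, 29.5, 19.99 and 25.4 CPM in the IMQ libraries and 23.1, 13.5 and 18.2 CPM in the control libraries. Pik3r5 (p101), a regulatory subunit of PI3K gamma, read 36.4, 78.5 and 67.5 CPM in the LYS libraries and between 15.7 and 23.1 CPM in the other 6. The gamma catalytic subunit Pik3cg and the other gamma regulator Pik3r6 lay just outside the rule, at ratios of 1.27 and 1.33 with all 3 LYS libraries highest. Pik3r1, the regulatory subunit expressed in most cells, read 236 to 284 CPM in the control libraries, 52.9 to 80.0 CPM in the IMQ libraries and 92.6 to 184 CPM in the LYS libraries. Its LYS values thus lay below control and above IMQ.

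Of the cytoskeletal genes, the formin Fmnl1 of leukocytes was the most even. It read 76.7, 80.7 and 80.8 CPM in the LYS libraries, 41.0, 39.9 and 41.1 CPM in the IMQ libraries and 33.9, 24.02 and 24.8 CPM in the control libraries. Arhgap30, a GTPase-activating protein, lay between 60.6 and 104 CPM in the LYS libraries and between 28.8 and 39.5 CPM in the rest. Arhgap9, another GTPase-activating protein, lay between 40.9 and 45.6 CPM against 16.6 to 26.1 CPM. Bin2, a membrane-bending protein of leukocytes, lay between 21.5 and 29.9 CPM against 4.39 to 14.1 CPM. The docking protein Cass4, the cytohesin-binding protein Ipcef1 and the G protein regulator Rgs14 had LYS means of 5.38, 7.47 and 13.9 CPM and ratios of 1.76, 1.63 and 1.60.

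The 3 genes on NF-kB and mRNA stability varied little within the LYS group. Nfkbie, the inhibitor I-kappa-B epsilon and itself an NF-kB target, read 20.3, 20.8 and 22.7 CPM in the LYS libraries, 9.40, 12.6 and 11.7 CPM in the IMQ libraries and 7.95, 7.29 and 7.58 CPM in the control libraries. Ikbke, a kinase of the interferon and NF-kB pathways, read 32.7, 41.7 and 38.3 CPM in the LYS libraries and between 14.2 and 19.2 CPM in the rest. Arid5a, which stabilises the mRNA of Il6 and other cytokines, read 34.3, 32.7 and 32.2 CPM in the LYS libraries and between 14.2 and 19.3 CPM in the rest. The related inhibitors Nfkbia and Nfkbib overlapped between LYS and IMQ, at ratios of 0.755 and 0.741, and so did the kinase Tbk1 at 0.955.

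The secreted matrix proteins and growth factors were the least even. Prg4 (lubricin), a lubricating proteoglycan, read 30.2, 56.0 and 52.7 CPM in the LYS libraries, 13.2, 4.18 and 1.24 CPM in the IMQ libraries and 8.61, 4.54 and 4.26 CPM in the control libraries. Tnc (tenascin-C), a matrix glycoprotein of healing and inflamed skin, read 247, 149 and 107 CPM in the LYS libraries, 68.2, 18.9 and 17.9 CPM in the IMQ libraries and 40.6, 31.4 and 56.4 CPM in the control libraries. Cpxm1, a secreted carboxypeptidase-like protein, read 244, 352 and 280 CPM in the LYS libraries, 148, 51.5 and 54.9 CPM in the IMQ libraries and 57.3, 65.4 and 65.1 CPM in the control libraries. In each of these the highest other library was IMQ 1, while IMQ 2 and IMQ 3 lay far below it. IMQ 1 was the nearest other library for 6 of the 7 genes in this group.

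Fgf23, the hormone of phosphate balance made mainly in bone, had 73, 21 and 17 counts in the LYS libraries and at most 6 counts in any other library. Its LYS mean of 2.43 ± 2.21 CPM rested on LYS 1, and even the lowest LYS library was 3.03 times the highest other. Its co-receptor Kl was at or under 0.355 CPM in all 9 libraries. Podnl1, a small leucine-rich proteoglycan, had 33, 37 and 50 counts in the LYS libraries and between 3 and 17 counts in the rest. Grem1, which binds and blocks bone morphogenetic proteins, read 31.9, 28.3 and 30.4 CPM in the LYS libraries, 18.7, 6.82 and 10.5 CPM in the IMQ libraries and 9.77, 7.85 and 9.97 CPM in the control libraries. Lgi2, a secreted leucine-rich repeat protein, lay between 41.7 and 68.2 CPM against 15.5 to 27.2 CPM. Of the ligands Grem1 binds, Bmp4 was highest in the control group (25.7 to 31.8 CPM) and lay between 4.72 and 9.70 CPM in the LYS group, and Bmp2 in the LYS group (6.21 to 13.0 CPM) overlapped both the control and the IMQ group.

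The 5 genes placed in no group were Tmem150b, AI467606, Arl5c, Fbxl8 and Eno2. Their mean LYS values were 2.03, 15.1, 5.20, 7.61 and 8.31 CPM and their ratios 2.18, 1.75, 1.55, 1.52 and 1.50. Tmem150b, which is linked to autophagy, had 16, 50 and 32 counts in the LYS libraries and at most 9 in any other. Just inside the ratio of 1.5 lay Il27ra (1.50), Eno2 (1.50) and Il10ra (1.51), and just outside it Prex1 (1.497), AI662270 (1.494) and Hlx (1.492). Prex1, a Rac exchange factor of leukocytes, read 104, 192 and 194 CPM in the LYS libraries and between 47.5 and 69.3 CPM in the rest. For 11 of the 47 genes, among them Prg4, Tmem150b, Fmnl1, Icam1 and Tnc, exons overlap those of a gene on the opposite strand. The sources used here do not state whether counting used strand, so reads of such pairs cannot be told apart.

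IMQ against control asks whether the genes highest with LYS had also changed with IMQ alone. This comparison was not independent of the choice, since the rule used the same 6 libraries. The LYS mice also received IMQ, so a gene that is high in control skin and falls with IMQ had little chance of being chosen. The counts over the 47 genes are therefore given as a description, and nothing is read from how they compare with all genes. The calls and adjusted p-values of single genes among the 47 are a description as well, here and below. They cannot serve as a test of IMQ, because the rule put an upper limit on the same values. Of the 47 genes, 45 passed the filter on low counts (all but Fgf23 and Tmem150b) and 21 were called higher in the IMQ group by edgeR. A call needed an adjusted p under 0.05 and a log2 fold change beyond 0.58 in either direction. None was called lower, none reached an unadjusted p under 0.05 in that direction, and DESeq2 called 22 higher and 0 lower. Over all 15976 genes tested, edgeR called 24.1% higher and 26.9% lower. The median log2 fold change of the 45 genes was 0.77, against -0.06 for all genes tested.

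The genes with the smallest adjusted p are given first, and nothing is read from their order or kind. Il10ra rose by 1.24 ± 0.13 (log2 fold change ± SE, edgeR adjusted p = 0.000137), Cd163l1 by 3.13 ± 0.34 (adjusted p = 0.000172) and Fgr by 2.11 ± 0.28 (adjusted p = 0.000394). Arhgap9 and Fmnl1 rose by 0.92 ± 0.14 and 1.01 ± 0.16. By function, the called genes were 5 of 10 among the T cell and cytokine receptor genes, 2 of 8 myeloid receptors and kinases (Fgr and Syk), 6 of 11 adhesion, PI3K and cytoskeletal genes and 3 of 3 NF-kB and mRNA stability genes. They were also 2 of 3 acute phase and chitinase-like genes (Saa3 and Chil3), 3 of 6 matrix and growth factor genes (Lgi2, Podnl1 and Grem1) and 0 of 4 of the rest. Saa2 had a log2 fold change of 1.83 ± 0.85 without passing the test (adjusted p = 0.0929). Tnc, Ptgir and Il27ra lay near 0, at 0.12 ± 0.45, 0.04 ± 0.42 and -0.04 ± 0.29.

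The count of calls depended on how libraries were scaled. With the library totals alone in place of TMM factors, 6 of the 45 genes were called higher (Il10ra, Cd163l1, Fgr, Bin2, Zc3h12d and Trgc1) and 0 lower, against 15% of all genes called higher. This scaling moved the median of all genes from -0.06 to -0.51 and that of the 45 genes from 0.77 to 0.33. The same scaling turns the estimate of 10 uncalled genes, Tnc and Icam1 among them, from above to below 0. Without IMQ 1, Tnc was called lower in the IMQ group at -0.68 (edgeR adjusted p = 0.0231).

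**Figure D3:**
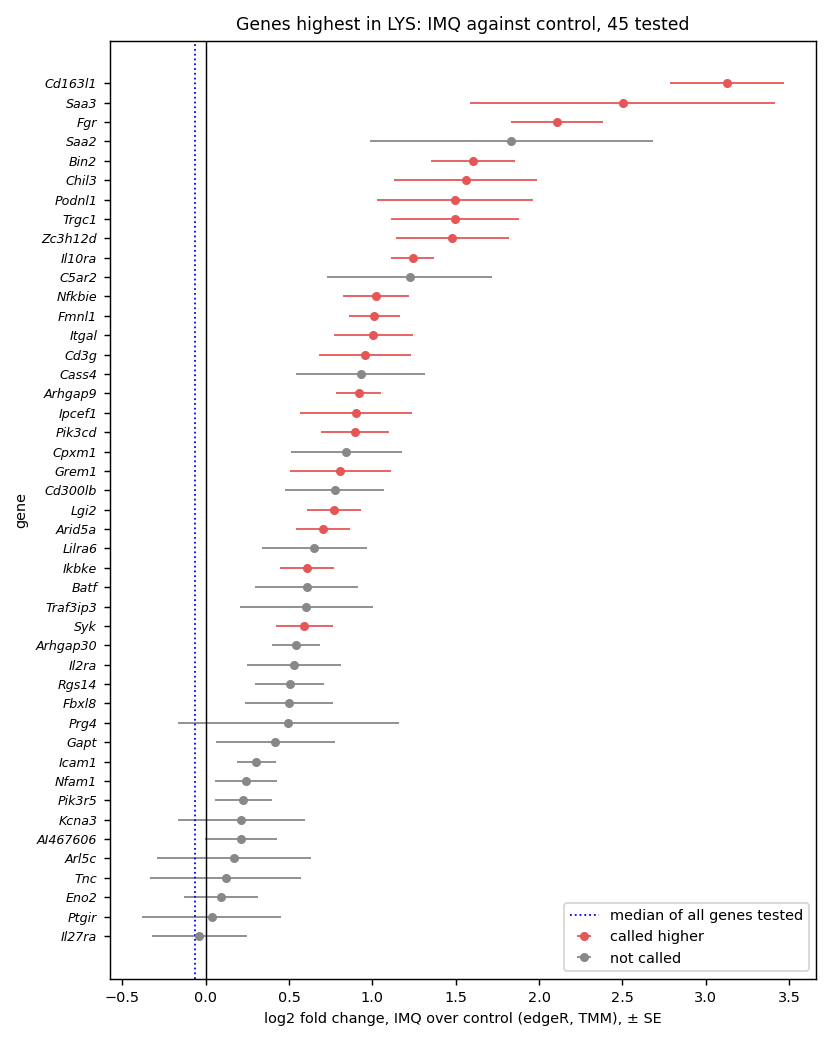
Points give the log2 fold change of IMQ over control for the 45 genes tested, and bars the standard error (3 libraries per group, edgeR with TMM scaling). Red points are the 21 genes called higher, and the dotted line at -0.06 is the median of all genes tested. All points but that of Il27ra lie above 0, and the largest are Cd163l1, Saa3 and Fgr.

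To see how each LYS library limited the list, the rule was applied without 1 LYS library and the picked genes were counted there. Both steps used the same 6 control and IMQ libraries, so this concerns the LYS side only. The genes found again were almost all among the 47 by construction. The shares of all genes beside them are not limited to genes that met the ratio in the other LYS libraries. No support for the choice is read from the contrast. Without LYS 2 the rule picked 52 genes, of which 46 (88.5%) were also at least 1.5 times above the other 6 in LYS 2, against 3.19% of all genes of that level. Without LYS 3 it picked 79, and 47 (59.5%) were found again in LYS 3, against 4.16% of all genes. Without LYS 1 it picked 339, and 47 (13.9%) were found again in LYS 1, against 0.893%. LYS 1 was thus the library that limited the list, and most genes shared by LYS 2 and LYS 3 did not reach the ratio in it. Scaling mattered too: with CPM scaled by TMM factors the rule kept 31 genes, of which 23 were among the 47. Of the 24 that left, Tmem150b fell under the minimum mean level and the other genes had ratios of 1.20 to 1.48 on that scale. Saa3, Tnc, Syk, Icam1, Itgal, Cd3g and Il2ra were among them. The 8 genes that joined were Lbp, Ptpn7, Per2, Cd55os, Gbp8, Gzmb, Ptprc and AI662270.

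The partners named above were chosen after the 47 genes were known. Of 37 such partners with a mean LYS CPM of at least 2, 14 had all 3 LYS libraries above the other 6, where 5.08% of all genes of that level did. These counts used library totals alone, and Cd3d and Tyrobp among the 14 do not keep that order with TMM factors. Partners picked for their tie to the 47 genes are no independent sample of genes, so nothing is read from this difference. Ptprc (CD45), the phosphatase carried by all leukocytes, read 124, 218 and 201 CPM in the LYS libraries and between 52.5 and 90.2 CPM in the other 6, at a ratio of 1.38. On TMM-scaled CPM its ratio was 1.57, so there it passed the rule.

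Marker lists of cell types, with the 47 genes left out, moved partly with them. The T and NK cell list, of which 2 of 16 genes (Cd3g and Il2ra) were among the 47, summed to 58.0 to 83.4 CPM in the LYS libraries, 33.0 to 53.3 CPM in the IMQ libraries and 23.3 to 35.9 CPM in the control libraries. Of the 14 genes left in that list, 5 had all 3 LYS libraries above the other 6. Its sums were scaled by library totals alone. With CPM scaled by TMM factors, LYS 3 fell below IMQ 1, so the LYS and IMQ sums overlapped there. No gene of the list was at 0 in every library, but Klrb1c stayed at or under 0.828 CPM and Cd8b1 at or under 0.546 CPM. The macrophage and dendritic cell list of 16 genes held none of the 47, and summed to 2613 to 6397 CPM in the LYS libraries, 1358 to 1866 CPM in the IMQ libraries and 2698 to 3766 CPM in the control libraries. It therefore overlapped between LYS and control. The neutrophil list summed to 6414 to 17140 CPM in the LYS libraries, below the 19315 to 22852 CPM of the IMQ libraries. That sum rests on its most abundant genes, and the genes did not move alike. All 3 LYS libraries were above the other 6 for 2 of the 10 genes. In LYS against IMQ, edgeR called 0 of the 8 tested, and DESeq2 called 1 higher and 2 lower. The list of nuclear and mitochondrial RNA, kept as a sign of RNA quality (8 genes in the table), also separated the groups. It summed to 17418 to 19274 CPM in the LYS libraries, 19616 to 24986 CPM in the IMQ libraries and 29480 to 46608 CPM in the control libraries. The part of these cell types and of RNA quality in the values of the 47 genes was not tested.

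**Figure D4:**
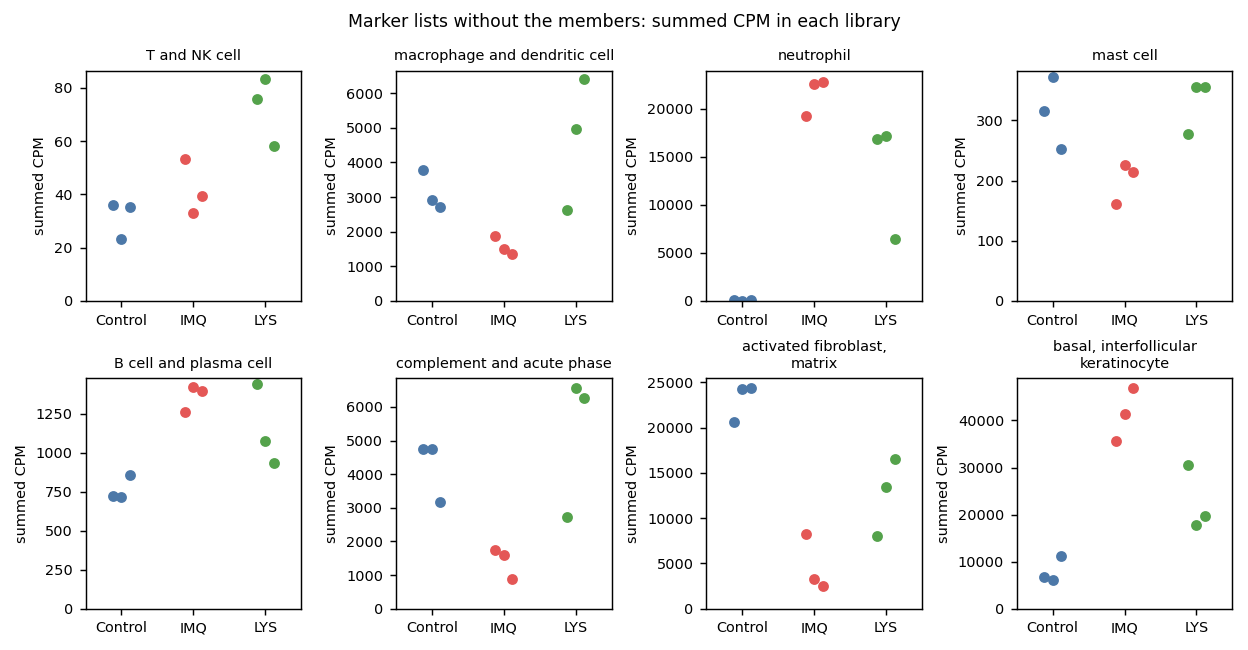
Points give the summed CPM of 8 lists in each library without the 47 genes, in the order of the replicate numbers, with each axis starting at 0. On library totals alone, the T and NK cell list is highest in all 3 LYS libraries (58.0 to 83.4 CPM). With TMM factors, LYS 3 falls below IMQ 1 in that list. The macrophage list is lowest in the IMQ libraries, and the neutrophil list is near 0 in the control libraries. In the matrix list IMQ 1 stands above IMQ 2 and IMQ 3.

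Genes of the lists outside the 47 were tested in LYS against IMQ. edgeR called 0 of 524 list genes, as it called 0% of all 15460 genes, with a smallest adjusted p of 0.0591 over the list genes. At an unadjusted p under 0.05 there were 246 list genes, 192 of them higher in LYS. DESeq2 called 165 higher and 37 lower of 528 list genes, where over all genes it called 12.3% higher and 8.79% lower. The count of edgeR depended on the libraries and the fit. Without LYS 1 it called 220 list genes, without IMQ 1 it called 134, with all 9 libraries in 1 fit 174 and with no filter on low counts 166. Against control, edgeR called 126 list genes higher and 130 lower of 538, beside 15.1% and 12.9% of all genes.

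The lists that hold some of the 47 genes differed in how the rest of each list stood. In the complement and acute phase list (2 of 19 among the 47, Saa2 and Saa3), the median log2 fold change of the other genes was 1.51 in LYS against IMQ and 0.32 in LYS against control, beside 0.04 and -0.01 for all genes. Its widest were the haptoglobin gene Hp (2.48 ± 0.42, DESeq2 adjusted p = 3.97e-07), C6 (2.25 ± 0.78), Serpina3n (2.13 ± 0.47) and C3 (1.99 ± 0.55), all 4 past DESeq2's threshold and none past edgeR's. Hp read 667 to 1434 CPM in the control libraries, 67.0 to 244 CPM in the IMQ libraries and 735 to 1152 CPM in the LYS libraries, so its LYS and control values overlapped.

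In the T and NK cell list the median of the other genes was 0.65 in LYS against IMQ and 1.37 in LYS against control, where edgeR called 7 of 12 higher and 0 lower. Gzmb, the cytotoxic protease granzyme B, rose by 1.47 ± 0.35 against control (edgeR adjusted p = 0.0166) and Cd4 by 1.74 ± 0.21 (adjusted p = 0.00153). Lck, the proximal kinase of the T cell receptor, and Nkg7, a granule protein, were at -0.03 ± 0.27 and 0.24 ± 0.27 in that comparison and were not called. In the alternative activation and type 2 list (Chil3 among the 47), the median of the other genes was 1.32 in LYS against IMQ and 1.11 in LYS against control. Against control, edgeR called 5 of 11 higher and 1 lower. The chemokines Ccl7 and Ccl2 rose against control by 1.50 ± 0.37 and 1.11 ± 0.33. Retnla, another marker of alternative activation, fell by 2.46 on the log2 scale (edgeR adjusted p = 0.046). The eotaxin Ccl11 had a log2 fold change of -0.78 ± 0.46 there and was not called.

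In the macrophage and dendritic cell list, edgeR called 2 of 16 genes higher and 1 lower in LYS against control, and its widest genes against IMQ were Folr2 (3.00 ± 0.53), Timd4 (2.35 ± 0.46), Mrc1 (2.10 ± 0.47) and Cd209a (1.97 ± 0.49). These are markers of resident macrophages and dendritic cells, and against control their estimates were -0.90, -1.26, 0.37 and -0.62, of which Timd4 was called lower. In the activated fibroblast list (Tnc among the 47), 4 of 31 genes were called higher and 9 lower against control. Spon2, Ptx3 and Timp1 were among its widest against IMQ, at 2.00, 1.92 and 1.69, and against control Spon2 and Ptx3 fell by 0.91 and 1.99 on the log2 scale. In the TGF-beta and BMP list (Grem1 among the 47), 2 of 19 were called higher and 4 lower against control. Its widest were Bmp3 (1.80 ± 0.46), Bmp6 (1.36 ± 0.45), Tgfb3 (1.19 ± 0.39) and Ltbp2 (1.10 ± 0.50) against IMQ, and of these Ltbp2 rose against control, by 1.18 ± 0.25.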

How the data were processed

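The authors deposited 1 table of raw counts of reads per Ensembl gene and the matching FPKM (the count scaled by exon length and library total) for 9 libraries, and all its per-sample columns were matched to a sample by title. Their processing notes at GEO name HISAT2, HTSeq 0.13.5 and GRCm38. Library preparation used Trizol RNA and a NEBNext Ultra kit. The strand setting is not given in the sources used here. LYS libraries are those the paper calls LYS-High.

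CPM was the count scaled to a library total of 1000000. Counts were tested with edgeR 4.0.16 in R 4.3.3 (TMM, filterByExpr, quasi-likelihood test, Benjamini-Hochberg adjustment over all genes tested), each fit holding only the compared groups. A call needed an adjusted p under 0.05 and a log2 fold change beyond 0.58 in either direction, thresholds the study uses. DESeq2 1.42.0, other scalings and filters, all 9 libraries in a single fit, a replicate block and leaving out each library were tried. The scripts were tested on simulated data. Within a group, no pair of libraries was a repeat: chi-square divided by its degrees of freedom was 16.9 to 100. The labels do not say that libraries come from separate mice, so p-values measure the spread between libraries.

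The genes, the 41 marker lists and the tests were chosen with earlier results of these data known, and the functional groups and partner genes after the 47 genes were known. The rule for naming genes took the 15 with the largest ratio, the 10 with the largest mean LYS CPM, up to 4 per list, the 5 with the smallest adjusted p in IMQ against control, 3 on each side of the ratio of 1.5, and up to 4 other genes per list with the largest change in LYS against IMQ. The remaining genes of the 47 were named so that each is accounted for. Promoter sequences came from RefSeq (GRCm38.p6) and positions from GENCODE M21. The NF-kB and IRF letters searched were shortened by 1 base after a longer form had found 0 and 1 genes. Plots used Python 3.11.15 and matplotlib 3.10.9. Values of some single genes are not reported here.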

Additional observations from a re-analysis of the deposited data

How the results depend on the processing

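The rule kept 31 genes on TMM-scaled CPM, 23 of them shared with the 47 and Saa3, Tnc, Syk and Icam1 among the 24 lost. It kept 143 at the lower ratio tried and 8 at a ratio of 2. With a library left out it kept 51 to 339 genes, 339 without LYS 1 and 79 without LYS 3. The share found again in LYS 1 was 9.82% on TMM-scaled CPM and 6.42% at a ratio of 2. In IMQ against control, 12 of the genes were called at an absolute log2 fold change over 1, 6 with library totals alone, and 17 to 22 with a library left out. List genes called in LYS against IMQ numbered 202 with DESeq2, 174 with all 9 libraries in 1 fit, 166 with no filter, and 0 to 220 with a library left out. In LYS against control they numbered 167 to 287 with a library left out, 167 without Control 1. Over 585 recomputed fold changes of the 45 genes, 485 kept direction and side of the threshold, 56 called values were no longer called, 20 became called, 24 uncalled values changed sign, and no called value did.

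With the replicate number as a replicate block, 20 of the genes were called in IMQ against control. List genes called were 0 in LYS against IMQ and 212 in LYS against control. The numbers did not pair the libraries: correlations of deviations between same-numbered control and IMQ libraries were 0.010, -0.028 and 0.138. The cause of these shifts was not tested. Low counts, as for Fgf23, Gapt, C5ar2 and Tmem150b, limit the precision of their values.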

Other observations

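By the same rule applied to the other groups, 1142 genes were highest in the control libraries and 72 in the IMQ libraries, beside the 47 of LYS. Among the 13471 genes with a mean LYS CPM of at least 2, the LYS mean lay between the other means for 67.7%, above both for 24.1% and below both for 8.23%. All 3 LYS libraries were above the other 6, at any ratio, for 684 of them. Immunoglobulin names aside, 22 genes had all 3 LYS libraries at least 1.5-fold below the other 6. That count was taken over genes with a mean of at least 2 CPM in those 6 libraries.

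A further 7 genes passed the ratio at a mean LYS CPM between 1 and 2: Gm38383, Gm42743, Gm10309, Gm48653, Trgv6, Syt17 and Tlr12. They were picked out after their values had been seen. Trgv6, a variable gene of the gamma chain at the locus of Trgc1, had 12, 19 and 22 counts in the LYS libraries, 7, 0 and 8 in the IMQ libraries and 3, 3 and 0 in the control libraries. Tlr12, a Toll-like receptor of profilin, had 15, 16 and 17 counts in the LYS libraries and at most 4 in any other.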
